A study of Rattus norvegicus with 6 samples.

Results

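The kinetochore, cohesin protection and condensin genes are 45 gene symbols whose products attach chromosomes to the spindle, keep sister chromatids joined until anaphase, and fold mitotic chromosomes. Members were taken as the rows of the gene count table that carried one of these symbols. Of the 45 symbols, 43 had a row, out of 43035 rows in all, of which 32883 were annotated genes and 10152 were unannotated transcripts that the authors assembled. Cenpp and Cenpq had no row of that name. The libraries came from primary cardiomyocyte cultures of Sprague-Dawley (SD) rat hearts, at postnatal day 1 by the labels and at 1 to 2 days of age by the methods of the study. Both groups were cells without a stated genetic change: si-NC cultures received a scramble siRNA (3 libraries), and si-DYRK1A cultures received an siRNA against Dyrk1a, a protein kinase, with RNA taken after 48 h (3 libraries). The labels call the 3 libraries of a group biological replicates, and neither the sex of the pups nor how many hearts made a culture was stated. The comparison between the groups asks how the transcripts of cardiomyocytes differ when Dyrk1a is targeted.

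The kinetochore is built in layers on the centromere. A histone variant, CENP-A, marks the centromeric nucleosome, a constitutive inner network (CCAN) binds it, and the Knl1, Mis12 and Ndc80 complexes on the outside bind microtubules and recruit the spindle checkpoint, which delays anaphase until every chromosome is attached. Shugoshins protect cohesin at the centromere, securin holds the protease separase inactive until anaphase, and condensin I and condensin II compact the chromosomes. Many of these genes are transcribed mainly in the G2 and M phases, and cardiomyocytes of the newborn rat heart leave the cell cycle soon after birth.

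Each library held between 10325074 and 11921772 counts, of which 17.2 to 17.5% lay in unannotated rows. The annotated Dyrk1a row, the target of the siRNA, held 3, 0 and 1 counts in si-NC and 2, 1 and 0 in the libraries labelled si-DYRK1A. An unannotated row over Dyrk1a stood at 77.7 ± 3.22 CPM (counts per 1000000 library counts after normalization, SD, n = 3) in si-NC and 82.4 ± 2.70 in those labelled si-DYRK1A, a log2 difference of 0.08 with an adjusted p of 0.374 by edgeR's quasi-likelihood test. Whether that row also spans other genes was not checked. A lower Dyrk1a transcript level was therefore not seen in these rows, and directions below are those of "the libraries labelled si-DYRK1A". The study itself reported knockdown of DYRK1A protein, by immunoblot of neonatal cardiomyocytes 48 h after siRNA transfection. Of 7 cardiomyocyte marker rows, 4 were at 0 in every library (Tnni3, Myh6, Myh7 and Myl2), each lying under an unannotated row. The summed level of the cardiomyocyte marker rows was 9918 to 10090 CPM in si-NC and 10740 to 11100 CPM in the libraries labelled si-DYRK1A. That sum was nearly all Actc1 (105141 to 128198 counts per library), which was called higher by 0.13 on the log2 scale. Tnnt2 (111 to 148 counts per library), the only other cardiomyocyte marker tested, gave -0.14 and was not called. The 5 fibroblast markers summed to 12730 to 16500 and 11020 to 11400 CPM (Pdgfra at 0), the 4 smooth muscle markers to 555.6 to 562.7 and 544.8 to 568.6 CPM (Acta2 and Myh11 at 0), the 4 endothelial markers to 126 to 137.8 and 100.4 to 109.4 CPM, and the 5 macrophage markers to 98.19 to 109.5 and 88.71 to 96.24 CPM (Cd68 at 0). Of the 4 fibroblast markers tested, Postn was called higher by 1.10 and the other 3 were not called. Of those 3, Dcn and Tcf21 had positive log2 fold changes and Col1a1, which held most of the fibroblast counts, gave -0.37. The unannotated row over Dcn, with 9 to 42 counts per library, was called higher by 1.00 (edgeR adjusted p = 0.0311). Those over Postn (0.39) and over Pdgfra and another gene (-0.15) were not called. Of the 4 endothelial markers, Cdh5 and Tek were called lower by log2 values of -0.31 and -0.75, while Kdr and Emcn were not called. The part of these shifts in the member results was not tested. In such mixed cultures, more cells of a type, or more cells in mitosis, and more RNA per cell cannot be told apart.

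How much of a member could be measured depended on whether an unannotated row lay over it. An unannotated row was taken to cover a member when it lay on the member's strand and spanned at least 50% of its length. Of the 43 members, 33 were covered, and together their own rows held 367 counts over the 6 libraries. Of these 33, 29 stayed under 10 counts in every library and 20 held 0 counts in all. The 10 members without a covering row (Cenpa, Cenpl, Cenpn, Cenpo, Cenpw, Ndc80, Spc25, Sgo2, Ncapg and Ncaph) held 24840 counts, and none of them was under 10 counts in every library. The 33 covering rows held 12626 counts. Of these rows, 27 spanned no other annotated gene by at least 50% and held 10343 counts, while 6 also spanned another gene and held 2283 counts (those over Cenpt, Pmf1, Ska2, Ska3, Ncapd2 and Smc4). All but 4 of the 20 members listed at 0 had counts in the row over them, so an own row at 0 is no measure of expression. The 4 were Zwint, Ska1, Espl1 and Smc2, which held 0 counts in the covering row as well. For Zwint and Ska1 the own row and the covering row have the same start and end. The same holds for the smooth muscle marker Acta2, which was also at 0 in its own row and in the row over it. How reads lying in both rows were counted was not given, so these zeros are no measure of expression either.

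**Figure D1:**
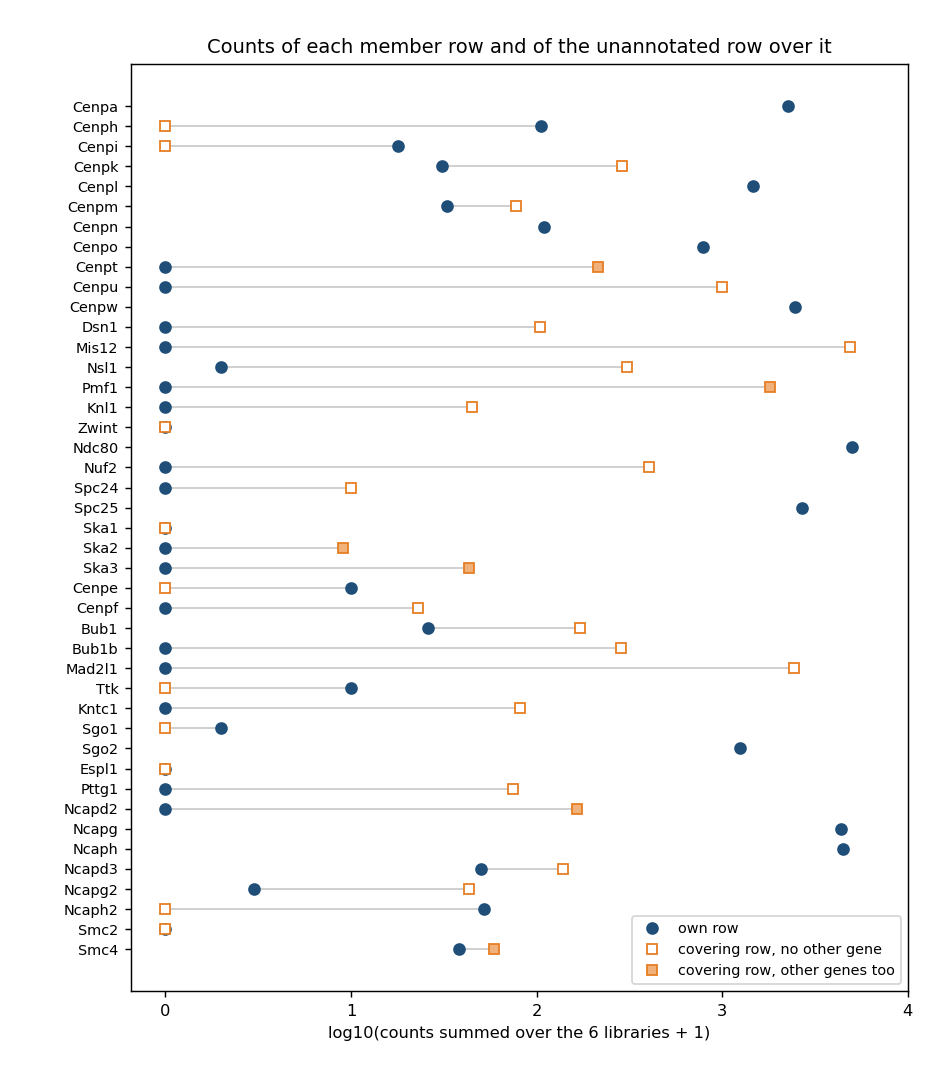
Counts summed over the 6 libraries, on a log10(counts + 1) axis, for each of the 43 member rows (filled circles) and for the unannotated row that covers it (open squares: no other gene; shaded squares: other genes too). The 10 members without a square hold 24840 of the 25207 counts of all member rows, and for members such as Mis12, Mad2l1 and Cenpu the circle is at 0 and the square well above it.

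Among the members' own rows, transcripts of the centromeric histone, of the inner kinetochore subunit Cenpw, of the Ndc80 complex, of a shugoshin and of condensin I were higher in the libraries labelled si-DYRK1A, by 1.18 to 1.49-fold. A row was called when its Benjamini-Hochberg adjusted p, over all 15513 rows with enough counts to test, was below 0.05 in edgeR's quasi-likelihood test. Of the 43 own rows, 12 had enough counts, 7 were called higher (Cenpa, Cenpw, Ndc80, Spc25, Sgo2, Ncapg and Ncaph) and 5 were not called, against 8.03% of all rows tested that were called higher. DESeq2 called 7 own rows higher as well, against 6.75% of all rows in its test. No own row was called lower, against 7.19% of all rows. By edgeR 0 member rows were lower and 8 higher at an unadjusted p below 0.05, and DESeq2 and limma on FPKM called 0 lower. The share of all rows at that unadjusted threshold was not taken, so the 8.03% is no background for the 8. The median log2 fold change of the 12 was 0.36, against 0.002 over all rows tested. In 9 of the 12 rows every library labelled si-DYRK1A stood above every si-NC library, a separation seen in 16.2% of all rows tested. The counts and medians describe only rows that passed the minimum, and a row that is low in si-NC could pass through the other group alone. Since 3 libraries against 3 cannot reach an exact permutation p below 0.1, calls rest on the spread shared across all rows in edgeR, whose common biological coefficient of variation was 8.82%.

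Of the 27 unannotated rows that cover 1 member and no other gene, 13 had enough counts. Those over Nuf2 and Mad2l1, 2 of the 13, were called higher, against 8.03% of all rows tested. The other 11 were not called. Adding each member's own counts to those of its covering row, where that row spans no other gene, gave 25 of 43 members with enough counts, of which 9 were called higher, 0 lower and 16 not called, against 8.02% higher and 7.18% lower over the table summed in this way. At an unadjusted p below 0.05 edgeR had 15 of these 25 higher and 0 lower, and DESeq2 called 0 lower. The shares of 8.02% and 7.18% are at the adjusted threshold, and no share of all rows was taken at the unadjusted one. The 9 are the 7 members named above with Nuf2 and Mad2l1, and 23 of the 25 log2 fold changes were positive, against 50.4% of all rows in the unsummed table. The 25 are only members that passed the minimum. Pttg1, with the largest log2 fold change (0.90), held 5, 13 and 8 counts in si-NC and 18, 11 and 19 in the libraries labelled si-DYRK1A. It could pass through the latter group alone, so its sign is no independent sign of direction.

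**Figure D2:**
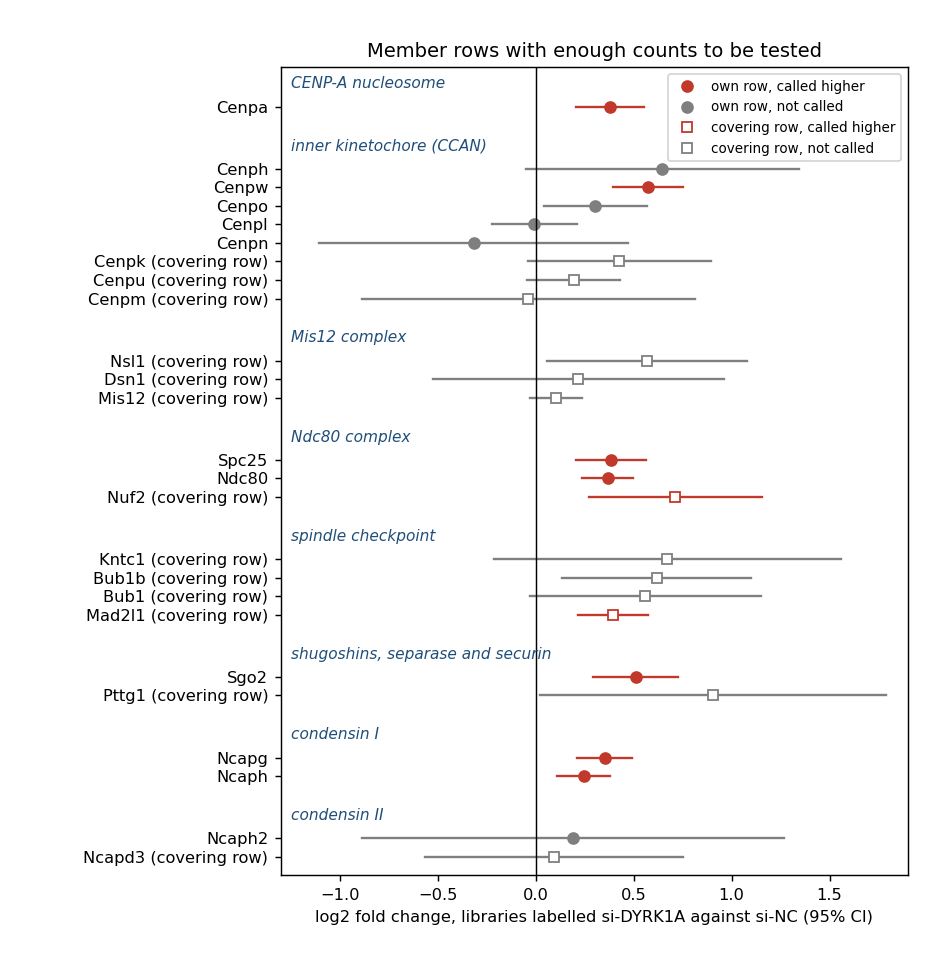
Log2 fold change with its 95% confidence interval for each member row with enough counts to test, libraries labelled si-DYRK1A against si-NC, grouped by complex; circles are own rows, squares are covering unannotated rows, and red marks rows called higher. The red points lie between 0.24 (Ncaph) and 0.71 (Nuf2), and the widest intervals belong to the rows with the fewest counts, such as Ncaph2 and Pttg1.

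Promoters of members were read from RefSeq, where 42 of the 45 symbols matched and Mis12 had 2 entries, giving 43 promoters of 300 bases (250 before the transcription start to 50 after). Sgo2, Cenpt and Zwint had no entry. The cell cycle genes homology region (CHR) is a short element bound by the DREAM complex and by its B-Myb and FoxM1 containing counterparts, which time G2 and M phase genes, and it often stands beside a CCAAT box bound by NF-Y. The letters TTTGAA or TTTAAA on either strand were searched for the CHR, CCAAT on either strand for NF-Y, and GCGGGAA on either strand for E2F. TTTAAA reads the same on both strands, and no matches of different motifs overlap in the sequences printed here. The promoters of the 3 measured members of the Ndc80 complex, and of Cenpw, Mad2l1 and Ncapg from 3 other groups of called members, are shown so that the position of these letters can be compared. They are given from 5′ to 3′ on the strand of the gene in build GRCr8, in lower case with each match in capitals.
Ndc80, chr9:118887480-118887779, minus strand: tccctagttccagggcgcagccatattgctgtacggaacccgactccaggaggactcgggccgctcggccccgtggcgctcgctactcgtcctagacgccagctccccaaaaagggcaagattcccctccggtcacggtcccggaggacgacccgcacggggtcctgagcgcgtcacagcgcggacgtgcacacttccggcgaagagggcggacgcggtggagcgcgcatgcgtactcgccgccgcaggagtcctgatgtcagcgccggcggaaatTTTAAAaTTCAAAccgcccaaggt
Nuf2, chr13:84255549-84255848, minus strand: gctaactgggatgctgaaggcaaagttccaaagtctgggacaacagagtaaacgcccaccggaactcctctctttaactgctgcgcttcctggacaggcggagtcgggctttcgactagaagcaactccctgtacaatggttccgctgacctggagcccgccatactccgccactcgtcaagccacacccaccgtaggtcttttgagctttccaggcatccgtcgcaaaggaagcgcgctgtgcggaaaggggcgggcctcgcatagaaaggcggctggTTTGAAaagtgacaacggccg
Spc25, chr3:74396669-74396968, minus strand: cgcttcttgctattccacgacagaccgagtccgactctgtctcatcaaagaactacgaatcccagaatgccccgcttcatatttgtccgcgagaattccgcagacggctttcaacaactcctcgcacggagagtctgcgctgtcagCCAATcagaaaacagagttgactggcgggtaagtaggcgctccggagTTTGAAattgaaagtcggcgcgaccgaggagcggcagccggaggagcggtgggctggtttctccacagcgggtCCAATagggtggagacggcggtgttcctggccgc
Cenpw, chr1:29353720-29354019, plus strand: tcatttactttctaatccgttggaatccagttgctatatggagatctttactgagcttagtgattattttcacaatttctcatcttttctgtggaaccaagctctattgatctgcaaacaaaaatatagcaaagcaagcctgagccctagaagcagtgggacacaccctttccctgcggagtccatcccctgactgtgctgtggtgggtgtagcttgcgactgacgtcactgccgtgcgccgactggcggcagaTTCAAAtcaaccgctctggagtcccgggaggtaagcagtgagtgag
Mad2l1, chr4:97236259-97236558, plus strand: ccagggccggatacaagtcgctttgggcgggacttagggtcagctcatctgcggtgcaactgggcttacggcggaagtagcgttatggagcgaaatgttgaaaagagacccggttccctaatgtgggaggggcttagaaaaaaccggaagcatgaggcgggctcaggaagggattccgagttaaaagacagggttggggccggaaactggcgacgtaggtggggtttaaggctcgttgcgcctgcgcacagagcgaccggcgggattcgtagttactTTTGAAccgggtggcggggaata
Ncapg, chr14:69645396-69645695, minus strand: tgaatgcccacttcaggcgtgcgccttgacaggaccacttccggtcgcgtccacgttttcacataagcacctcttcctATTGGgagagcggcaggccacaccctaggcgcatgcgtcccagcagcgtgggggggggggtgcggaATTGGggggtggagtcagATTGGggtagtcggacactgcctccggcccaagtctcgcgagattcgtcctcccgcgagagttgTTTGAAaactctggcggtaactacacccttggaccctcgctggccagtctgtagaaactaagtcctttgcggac

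In the Ndc80 promoter the capitals are TTTAAA 26 bases and TTCAAA, the reverse complement of TTTGAA, 33 bases after the start. Nuf2 held TTTGAA 29 bases after the start, Mad2l1 27 bases after it, and Cenpw held TTCAAA 4 bases after it. Spc25 held TTTGAA 57 bases before the start with CCAAT 104 bases before and 16 bases after it. Ncapg held TTTGAA 24 bases before the start with ATTGG, the reverse complement of CCAAT, 172, 106 and 88 bases before it. In these 6 promoters every CHR match began within 57 bases of the start. The called member Cenpa, whose promoter is not printed here, held its CHR matches 147 and 116 bases before the start. Over all members, a CHR match was found in 27 of 43 promoters (62.8%), against 28.3% of 33469 RefSeq promoters of this length. TTTGAA was in 51.2% of member promoters and 18.3% of all, TTTAAA in 20.9% and 13.6%, CCAAT in 51.2% and 37.5%, and the E2F letters in 16.3% and 4.21%. A CHR match and CCAAT stood together in 32.6% of member promoters and 11.3% of all.

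For the calls on summed rows, the first RefSeq entry of each member was read. The 8 members called higher that had a promoter entry all held a CHR match. It was held by 8 of the 16 members tested and not called, 10 of the 16 not tested and 0 of the 2 without a row. Calls depend on counts as well as on the size of a difference. On summed rows Ncaph, with 4480 counts over the 6 libraries, was called at 0.24. Bub1 (196 counts, 0.66) and Bub1b (285 counts, 0.62), with a match, and Cenph (104 counts, 0.65), without one, were not called. The split by call is therefore not a split by size of difference. Those tested and not called without a match were Cenph, Cenpk, Cenpn, Cenpu, Dsn1, Mis12, Ncapd3 and Ncaph2, of which Mis12 held TTTGAA in its second entry, 200 bases before the start. Among all annotated genes tested that had a promoter, a CHR match was found in 25.4% of 607 called higher, 14.1% of 615 called lower and 18.3% of 5362 not called. The letters are a description of these windows, and binding at them was not measured here.

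**Figure D3:**
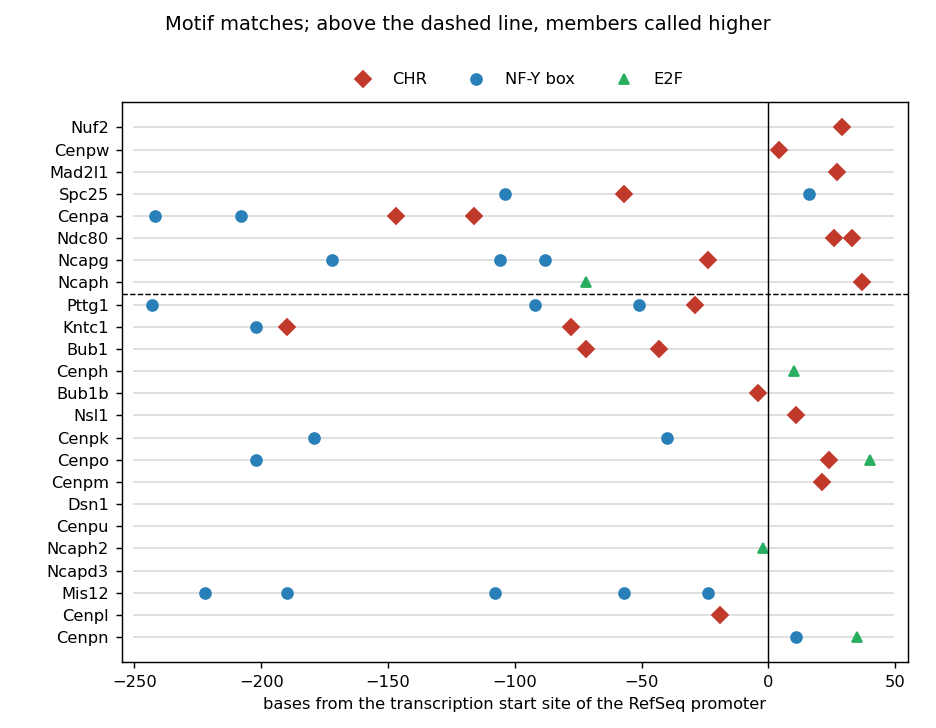
Positions of the motif matches, in bases from the transcription start of the RefSeq promoter, for members tested on summed rows (first entry of each); diamonds are CHR matches, circles CCAAT matches (the NF-Y box) and triangles E2F matches. The 8 members above the dashed line, called higher, each have at least 1 diamond, lying from 147 bases before the start (Cenpa) to 37 bases after it (Ncaph).

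At the base of the kinetochore, Cenpa, which encodes the centromeric histone H3 variant (ENSRNOG00000032178, chromosome 6, 27072166 to 27080856, minus strand, Rnor_6.0), was called higher. Its level was 28.3, 28.8 and 30.1 CPM in the si-NC libraries and 35.0, 37.4 and 41.0 CPM in the libraries labelled si-DYRK1A. The groups did not overlap, and the log2 fold change was 0.38 (SE 0.0833, edgeR adjusted p = 0.00304).

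In the CCAN, which links the CENP-A nucleosome to the outer layers, 10 of 12 symbols had a row and 5 own rows were tested. Cenpw, a histone-fold subunit that pairs with CENP-T (ENSRNOG00000042944, chromosome 1, 29915443 to 29920598, plus strand, Rnor_6.0), stood at 31.1, 28.6 and 28.2 CPM in si-NC and 47.4, 38.9 and 44.4 CPM in the libraries labelled si-DYRK1A. All 3 of the latter were above all si-NC libraries, with a log2 fold change of 0.58 (SE 0.0856, edgeR adjusted p = 6.08e-05). Cenpl, whose product binds that of Cenpn, was at 21.6 ± 2.02 and 21.5 ± 2.22 CPM (SD, n = 3), and its log2 fold change of -0.01 had a 95% interval from -0.22 to 0.21. Cenpo, of the CENP-O/P/Q/U group of subunits, showed 10.4 ± 0.293 and 12.8 ± 0.868 CPM without overlap, a log2 fold change of 0.30 that was not called (edgeR adjusted p = 0.117). Adcy3 lies over 3.76% of Cenpo on the other strand with 454 to 588 counts per library, while Cenpo itself held 107 to 157. Cenph, of the CENP-H/I/K/M group, with 11 to 17 counts per library in si-NC and 20 to 22 in the libraries labelled si-DYRK1A, did not overlap either and was not called (log2 fold change 0.65, 95% interval -0.05 to 1.35, edgeR adjusted p = 0.221). Cenpn, which reads the CENP-A nucleosome, held only 7 to 24 counts, gave -0.31 (edgeR adjusted p = 0.652), and is overlapped over 76.6% of its length by an unannotated row on the other strand with 185 to 239 counts, so its counts are uncertain. Within the CCAN, the libraries thus differed in Cenpw beyond their spread, while for Cenpl a difference of more than 0.22 in either direction lay outside the interval.

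The other CCAN members were seen mainly through covering rows. The row over Cenpu held 13.4 to 14.5 CPM in si-NC and 14.5 to 17.2 CPM in the libraries labelled si-DYRK1A (log2 fold change 0.20, edgeR adjusted p = 0.286). The row over Cenpk gave 0.43 (edgeR adjusted p = 0.229) and 0.48 with its 30 own counts added (adjusted p = 0.149), which became a call without the third si-NC library (0.73, adjusted p = 0.0357). The row over Cenpm, with 9 to 18 counts per library, gave -0.04, and 0.25 with the own counts added. The row over Cenpt also spans Tsnaxip1 and Ranbp10, and its log2 fold change of 0.48 (edgeR adjusted p = 0.206) cannot be assigned to Cenpt. Cenpi held 17 counts over the 6 libraries and was not tested. No CCAN row but that of Cenpw was called, and the median over the 5 own rows tested was 0.30.

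The Mis12 complex joins the CCAN to the Ndc80 complex, and none of its own rows held more than 1 count. Its most counted row was the unannotated row over Mis12 (ENSRNOG00000007725, chromosome 10, 57660067 to 57660687, plus strand), which runs from 57653605 to 57664872. That row held 68.2, 66.9 and 72.1 CPM in si-NC and 79.7, 73.4 and 69.8 CPM in the libraries labelled si-DYRK1A, so the groups overlapped. The log2 fold change was 0.11 (95% interval -0.03 to 0.24, edgeR adjusted p = 0.305). The rows over Nsl1 and Dsn1 gave 0.57 (edgeR adjusted p = 0.132) and 0.22 (adjusted p = 0.755). The row over Pmf1 also spans the mitochondrial carrier gene Slc25a44 and gave -0.01. No row of the Mis12 complex was called. Of Knl1, the scaffold for checkpoint proteins, and its partner Zwint, the former had 44 counts in its covering row (2 to 12 per library) and the latter 0, so neither was tested.

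The Ndc80 complex, a rod whose Ndc80 and Nuf2 heads bind the microtubule and whose Spc24 and Spc25 tails face the chromosome, was called higher in each of its 3 measured members. Ndc80 (ENSRNOG00000013727, chromosome 9, 119839016 to 119871382, minus strand, Rnor_6.0) showed 61.2, 62.4 and 68.8 CPM in si-NC and 86.4, 80.8 and 81.4 CPM in the libraries labelled si-DYRK1A. The lowest of the latter lay well above the highest of the former, and the log2 fold change was 0.37 (SE 0.0624, edgeR adjusted p = 0.000256). Spc25 (ENSRNOG00000006731, chromosome 3, 55438536 to 55451798, minus strand) stood at 35.8, 30.5 and 37.4 CPM against 48.0, 42.1 and 45.2 CPM. Its groups did not overlap and the log2 fold change was 0.38 (SE 0.0849, edgeR adjusted p = 0.00306).

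Nuf2 had no counts of its own, and the row over it (chromosome 13, 87818408 to 87847222, minus strand) was annotated with the Nuf2 family domain. It held 3.36, 4.99 and 5.10 CPM in si-NC and 8.80, 5.37 and 7.96 CPM in the other group, that is, a log2 fold change of 0.71 (SE 0.213, edgeR adjusted p = 0.0256). The second library labelled si-DYRK1A lay close to the si-NC libraries. The call was lost without the first si-NC library (0.55, adjusted p = 0.127) and without the first or the third library labelled si-DYRK1A (0.57 and 0.66, adjusted p = 0.143 and 0.105), and DESeq2 gave 0.71 with an adjusted p of 0.0724. Spc24 held 9 counts in its covering row over the 6 libraries and 0 in its own, too few to test. Ndc80 and Spc25, with 4979 and 2696 counts over the 6 libraries, are the firmer measurements of this complex. Of 15 alternative settings, Ndc80 was called in 15, Spc25 in 12 and the row over Nuf2 in 8.

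The Ska complex and the corona proteins, which help the kinetochore follow moving microtubules, were hardly measured. Ska1 held 0 counts, and the rows over Ska2 and Ska3, which also span Mir301a and Mrpl57, held 8 and 42 counts over the 6 libraries. Cenpe, a kinesin motor, held 9 counts in its own row and Cenpf held 22 in its covering row. The row over Ska3 held 4, 5 and 6 counts in si-NC and 10, 9 and 8 in the libraries labelled si-DYRK1A, without overlap. None of these 5 members had enough counts to be tested.

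Among the spindle checkpoint members, all 5 own rows were too low to test and Mad2l1, whose product Mad2 inhibits the anaphase-promoting complex, was measured best through its covering row (chromosome 4, 97531083 to 97542174, plus strand, with a HORMA domain). That row held 29.7, 33.8 and 30.0 CPM in si-NC and 44.2, 37.0 and 41.9 CPM in the libraries labelled si-DYRK1A. The groups did not overlap and the log2 fold change was 0.40 (SE 0.0858, edgeR adjusted p = 0.00269). The rows over Bub1b and Bub1, which encode BubR1 and a checkpoint kinase, gave 0.62 (edgeR adjusted p = 0.079) and 0.56 (adjusted p = 0.207) with overlapping groups. The Bub1b row was called without the third si-NC library (0.89, adjusted p = 0.0203). The row over Kntc1, which encodes Rod of the dynein-recruiting RZZ complex, gave 0.67 (adjusted p = 0.333) and rested on 27 counts in the third library labelled si-DYRK1A against 9 to 11 in the others. Ttk, the Mps1 kinase, held 9 counts and was not tested. The 4 summed rows tested all had positive log2 fold changes, and only that of Mad2l1 was called.

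Of the genes that protect or release cohesin, Sgo2, the shugoshin best known from meiosis that also acts at mitotic centromeres (ENSRNOG00000027035, chromosome 9, 64898459 to 64923012, plus strand), was called higher. It stood at 13.8, 14.9 and 16.8 CPM in si-NC and 21.0, 21.8 and 22.1 CPM in the libraries labelled si-DYRK1A. The groups did not overlap, with a log2 fold change of 0.51 (SE 0.105, edgeR adjusted p = 0.00168). Kctd18 lies over 74.1% of Sgo2 on the other strand with 15 to 34 counts per library, while Sgo2 itself held 144 to 255. The covering row of Pttg1, which encodes securin, gave 0.90 with a wide interval (0.02 to 1.79, edgeR adjusted p = 0.170) on 5 to 19 counts per library. Sgo1 held 1 count and Espl1, which encodes separase, 0.

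Condensin I, which gains access to the chromosomes after nuclear envelope breakdown, was called higher in its subunits Ncapg and Ncaph. Ncapg (ENSRNOG00000038572, chromosome 14, 69899128 to 69927938, minus strand) stood at 51.7, 58.3 and 59.0 CPM in si-NC and 72.9, 68.4 and 74.5 CPM in the other group, that is, a log2 fold change of 0.35 (SE 0.0673, edgeR adjusted p = 0.000883). Ncaph, the kleisin that closes the ring (ENSRNOG00000012051, chromosome 3, 119583648 to 119611136, minus strand), stood at 58.9, 63.0 and 59.6 CPM against 75.4, 67.1 and 72.5 CPM. In both genes the groups did not overlap. The log2 fold change of Ncaph was 0.24 (SE 0.0642, edgeR adjusted p = 0.0116), and its call was lost without the first si-NC library (adjusted p = 0.053) and without the first or the third library labelled si-DYRK1A (adjusted p = 0.0627 and 0.0522). The row over Ncapd2 also spans a small nucleolar RNA and gave 0.44 (edgeR adjusted p = 0.375).

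Condensin II, which stays in the nucleus through interphase, was measured poorly. Ncaph2 held 3 to 12 counts per library and gave 0.19 (edgeR adjusted p = 0.861), the row over Ncapd3 gave 0.09 (adjusted p = 0.894), and Ncapg2 held 2 own counts and 42 in its covering row. Of the SMC subunits shared by both condensins, Smc2 held 0 counts in both its rows, and Smc4 held 37 in its own row and 58 in a row that also spans Mir15b and Mir16. No row of condensin II or of the SMC subunits was called, and the intervals of Ncaph2 (-0.88 to 1.27) and of the Ncapd3 row (-0.57 to 0.75) include differences as large as those of condensin I.

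**Figure D4:**
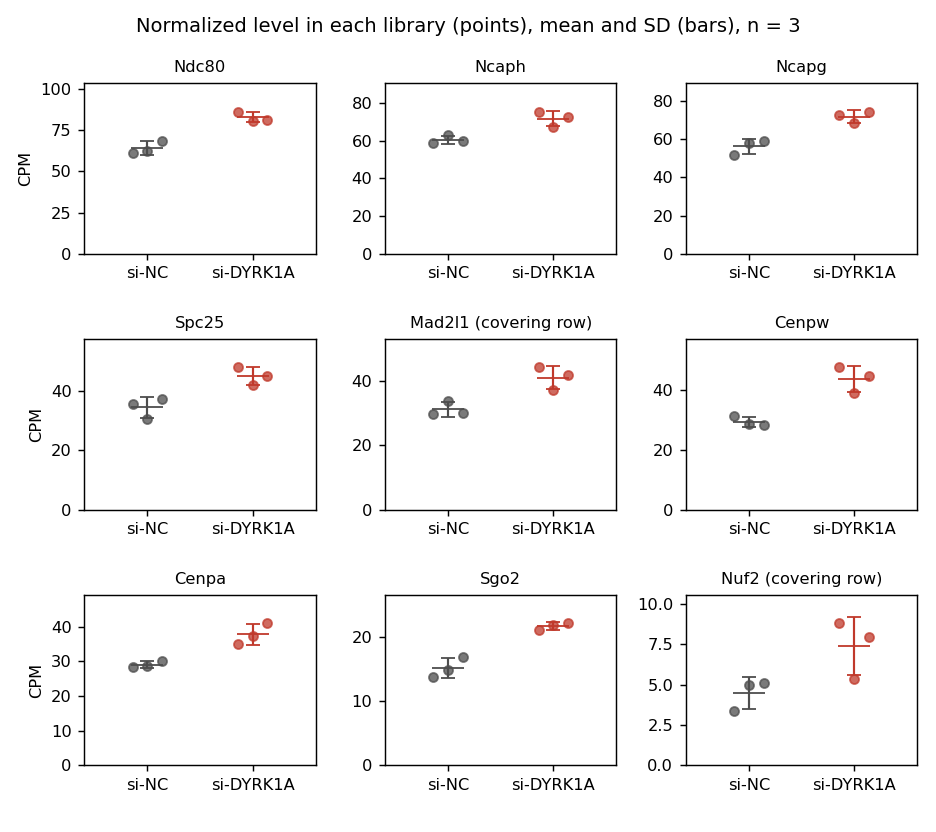
Normalized level in CPM of the 9 rows called higher, in each of the 3 si-NC libraries (grey) and the 3 libraries labelled si-DYRK1A (red), with the mean and SD as bars; each vertical axis starts at 0. In all 9 panels the red points lie above the grey ones, and the smallest gap is in the row over Nuf2, where 5.37 CPM stands next to 5.10 CPM.

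Between genes, levels can be compared only per length, on the FPKM scale of the deposited file. Of the 10 members without a covering row, Spc25 had the highest mean FPKM in si-NC (27.4 ± 2.79, SD, n = 3), followed by Ncaph (21.1), Ndc80 (18.6), Cenpw (18.2), Ncapg (16.7), Cenpa (11.5), Cenpl (9.08), Cenpo (8.81), Sgo2 (3.30) and Cenpn (0.645). The ranges over the si-NC libraries overlapped between the neighbours Ndc80 and Cenpw, Cenpw and Ncapg, and Cenpl and Cenpo, and did not overlap between the other neighbours. In the libraries labelled si-DYRK1A, Cenpw had a mean FPKM of 26.95 ± 2.65 and Ncaph 24.9 ± 1.44, so the order of these genes in mean FPKM differed between the groups.

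**Figure D5:**
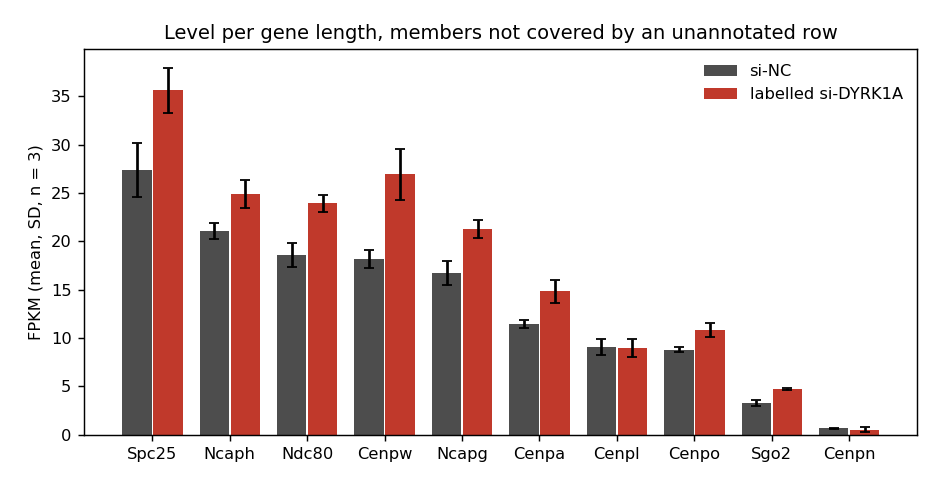
Mean FPKM (fragments scaled to gene length and library size) of the 10 members that no unannotated row covers, in si-NC (grey) and in the libraries labelled si-DYRK1A (red), with SD bars over 3 libraries and an axis from 0. Spc25 is highest in both groups, Cenpw stands at 18.2 and 26.95, and the bars of Cenpl are level at 9.08 and 9.01.

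Genes that work with the members, a list of 33 symbols of which 30 had a row, were read from the same fit. Of these 30, 17 were tested, 9 were called higher and 0 lower, against 8.03% higher and 7.19% lower over all rows tested. Their median log2 fold change was 0.20, against 0.002 over all rows. At an unadjusted p below 0.05, where no share of all rows was taken, edgeR had 11 higher and 0 lower, and DESeq2 and limma on FPKM called 0 lower. The chromosomal passenger complex, which corrects wrong attachments, was called higher in Aurkb (0.32), Incenp (0.27) and Birc5 (0.56). Of 15 alternative settings, Birc5 was called in 15, Aurkb in 14 and Incenp in 12. Cdca8, also of this complex, held 0 counts in its own row and in the row over it and was not tested. Cdc20, the activator of the anaphase-promoting complex, was higher by 0.44, the checkpoint gene Bub3 by 0.25 and Spdl1, which encodes the dynein adaptor Spindly, by 0.47. For the deposition of CENP-A, Mis18a was higher by 0.30, though DESeq2 did not call it (adjusted p = 0.145) and the call was lost without any single library but the third si-NC library. The rows over Hjurp, the CENP-A chaperone, and Oip5, of the Mis18 complex, gave 0.61 (edgeR adjusted p = 0.000117) and 0.37 (edgeR adjusted p = 0.0197, DESeq2 0.0897).

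The measured subunits of the cohesin ring showed smaller differences than the shugoshin Sgo2. Smc3, a further ring subunit, held 27 own counts and 10 in its covering row over the 6 libraries and was not tested. The ring subunits Smc1a and Rad21 were called higher by 0.16 and 0.20 on the log2 scale, the former losing its call without any of 4 of the 6 libraries (adjusted p = 0.0608 to 0.095). Stag1 and Stag2, the alternative subunits that hold the ring on chromatin, gave -0.01 (95% interval -0.10 to 0.09) and -0.06 (-0.16 to 0.04), and the regulator Pds5b 0.04 (-0.08 to 0.17). Esco2, the acetyltransferase that establishes cohesion in S phase, gave 0.22 and was not called (edgeR adjusted p = 0.131). Cenpc, the CCAN scaffold, gave 0.18 (edgeR adjusted p = 0.0907). The difference between Sgo2 and the ring subunits was not tested.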

How the data were processed

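RNA enriched for mRNA was sequenced in 6 libraries. Per the methods of the study, reads were aligned to Rnor_6.0 with HISAT2, while the submitters' processing notes name Bowtie 0.12.2 and the mouse build mm8. The rows carry rat gene identifiers and coordinates. The counting program, annotation release and strand setting were not given in the sources used, so genes overlapping on opposite strands may share reads. The authors deposited raw counts per gene and FPKM (fragments scaled to gene length and library size) for each library, and numbered the unannotated transcripts they assembled. Columns holding Pfam domains were read for names only.

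Counts were tested as deposited with edgeR 4.0.16 in R 4.3.3 (TMM, filterByExpr with a minimum of 10 counts, robust quasi-likelihood fit, no covariates, Benjamini-Hochberg over 15513 rows). CPM are normalized by TMM. No test across genes is named in the study's methods, so this test was chosen here. The scripts were tested on simulated counts with known changes. DESeq2 1.42.0, limma 3.58.1 on log2(FPKM + 1) and log2(FPKM + 0.1), other normalizations and filters, a replicate block and leaving out each library were the alternatives. Library pairs of 1 group differed beyond sampling noise (chi-square per degree of freedom 2.61 to 6.5), so no library was counted as a duplicate. Intervals of fold changes are 95%.

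Every member is accounted for. Members called, at most 4 of a complex, and the most counted member of a complex without calls are given per library. The members and lists were chosen with earlier results of these data known. FPKM levels are the authors' values. Promoters came from RefSeq (GRCr8), a different build from that of the count table.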

Additional observations from a re-analysis of the deposited data

How the results depend on the processing

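The number of members' own rows called higher was 7 with DESeq2, with RLE or library-size normalization, with no filter, with at least 10 counts in every library and with the replicate block, and 6 to 7 when a library was left out. It fell to 5 with limma on log2(FPKM + 1) or log2(FPKM + 0.1) and to 2 on log2(FPKM + 1) with no filter, where 344 rows of the whole table were called higher in place of 1245. The covering rows called higher, 2 in edgeR, were 1 with DESeq2, 0, 0 and 0 on the 3 FPKM settings and 1 to 3 with a library left out. The related genes called higher, 9 in edgeR, were 5, 5 and 3 on the FPKM settings and 7 to 8 with a library left out. The members on summed rows, 9 in edgeR, were 8 with DESeq2, 9 with a cover of at least 90% and 7 to 11 with a library left out. No alternative called a member or a related gene lower. The median log2 fold change of the inner kinetochore rows, 0.30 in edgeR, was 0.44 with at least 10 counts in every library, where fewer rows were tested.

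Same-numbered libraries did not deviate together (r = 0.0578, -0.0261 and -0.00409), and 1 of 3 pairs correlated best with its own number. With the replicate number as a block the counts were 7, 2, 9 and 9 for own, covering, related and summed rows, so the block changed none of these counts.

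Signs turned only in rows that were never called, and the cause was not tested. Without single libraries Cenpl ranged from -0.095 to 0.065 (0.065, 0.035 and 0.036 without si-NC replicate 3 and si-DYRK1A replicates 2 and 3). Cenpn ranged from -0.64 to 0.049 (without si-DYRK1A replicate 1), and Ncaph2 from -0.23 (without si-NC replicate 3) to 0.56. The row over Cenpm ranged from -0.31 to 0.22 (0.22, 0.16 and 0.0090 without si-NC replicate 3 and si-DYRK1A replicates 1 and 3), that over Dsn1 from -0.041 (without si-DYRK1A replicate 3) to 0.39, and that over Ncapd3 turned to -0.096 and -0.099 without the second replicate of either group, with a highest value of 0.30. Summed Ncapd3 ranged from -0.068 to 0.31 (-0.068 and -0.033 without si-NC replicate 2 and si-DYRK1A replicate 1). Among related genes, Stag1 ranged from -0.017 to 0.0072 (without si-DYRK1A replicate 2), Pds5b from -0.0074 (without si-DYRK1A replicate 1) to 0.099, and the row over Esco1 from -0.18 to 0.035 (0.035 and 0.025 without si-NC replicate 1 and si-DYRK1A replicate 2). On summed rows 25 of the 43 members were tested. The others had too few counts, or, for Pmf1, Cenpt and Ncapd2, a covering row that also spans another gene and was not added.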

Other observations

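Domain names in the deposited table touch on further CCAN subunits. CENP-P had no row of its symbol, and an unannotated row on chromosome 17 (14589306 to 14604643, Rnor_6.0) carried the Pfam domain of CENP-P and held 3, 1 and 0 counts in the si-NC libraries against 7, 4 and 0 in those labelled si-DYRK1A. An unannotated row within Cenpn (chromosome 19, 49456908 to 49479996) carried the CHL4-like domain, which is the domain of CENP-N, and held 3 to 13 counts per library beside the 7 to 24 of the annotated Cenpn row. The CENP-T histone fold was also named for an unannotated row on chromosome 4 that spans Hist1h4m, H2afj and Wbp11, which held 40 to 75 counts per library. That row does not overlap Cenpt and lacks the CENP-T N-terminus domain named for the row over Cenpt. It is therefore no measure of a CCAN subunit.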
